A study of Mus musculus with 12 samples.

Results

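The genes described are 9 members of the Hedgehog pathway, Shh, Ihh, Ptch1, Hhip, Smo, Sufu, Gli1, Gli2 and Gli3, found by name among the 22035 gene names in the copy-number tables of 2 mouse pancreatic cancer lines. All 9 were found, each in exactly 1 segment per line. Both lines, 15376T and 14837T, are primary cultures of pancreatic ductal adenocarcinoma (PDAC) from engineered C57BL/6 mice. The alleles of the mice included ROSA_rtTA (a transcriptional activator that needs doxycycline), p48-Cre and 1 Trp53 allele that Cre deletes (Trp53 L/+), and the cultures were kept in doxycycline. The p48 promoter drives Cre in the pancreas, and the labels give the genotype of both lines as WT, in contrast to the LIN28B knockout of the same series. The age of the mice is not given in the sources used here. Genomic DNA of each line was measured by whole-exome sequencing (WES) in 1 library (WES-15376T, WES-14837T), and the values of each library are given below under the name of its line. The DNA of wild-type tail and the RNA samples were not analysed here. No value has a replicate, so nothing below is tested and no p-value is given.

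Each segment is a stretch of a chromosome with a common coverage, and its log2 ratio compares that coverage with a copy-number reference, so that 0 stands for the reference level. The authors turned the log2 ratio into whole copy numbers. On the autosomes every call followed thresholds of -0.25, at or below which fewer than 2 copies were called (lost), and 0.2, above which more than 2 were called (gained). If every cell had 1 copy in place of 2 the log2 would be -1, and with 3 copies it would be 0.58. Autosomal segments at 2 copies had an SD of log2 of 0.090 in 15376T (103 segments) and 0.095 in 14837T (96 segments). It serves as the spread of one value, and 0.13 as that of a difference between the lines. Both describe variation among segments called at 2 copies, not the measurement error of a segment. The 0.13 combines the SDs of the lines as if they were independent. The mean read depth was 43.4 and 47.5. Values of a gene are those of its segment, and a change confined to a single gene was not detectable in them.

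Hedgehog signaling starts when a secreted ligand binds Patched 1 (Ptch1), which otherwise keeps the membrane protein Smoothened (Smo) silent. Free Smo acts in the primary cilium and releases the Gli transcription factors from their inhibitor Sufu. In pancreatic cancer the ligands are known to come from the epithelial tumor cells and to act mainly on the fibroblasts around them.

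In 15376T all 9 genes were called at 2 copies, as were 60.9% of the 20947 autosomal genes, and none was gained or lost, as 9.09% and 30.1% of all genes were. In 14837T 6 of the 9 were called at 2 copies, as were 49.7% of all genes, so that 6 of 9 had 2 copies in both lines beside 41.4% of all genes. Sufu, the inhibitor of the Gli proteins, was gained to 3 copies there (gained were 21.4% of all genes), and Ptch1, the receptor, and Gli1, a Gli activator and itself a target of the pathway, were lost to 1 copy (lost were 28.8% of all genes). The step from 2 copies to a loss was taken by 2 of the 9 genes, all of which had 2 copies in 15376T. Of the 12747 genes at 2 copies in 15376T, 1262 took it, or 6.02% of all genes. None of the 9 was lost or gained in both lines, which follows from their 2 copies in 15376T (22.4% and 6.87% of all genes were). The call thus differed between the lines for 3 of 9 genes, or 33.3%, near the 29.3% of all genes. The log2 difference was larger than its spread for the same 3 genes, while it was so for 49.6% of all genes. The median log2 of the 9 genes was 0.058 in 15376T and -0.048 in 14837T, beside medians of -0.023 and -0.045 over all genes. The 9 genes lie on 7 chromosomes in 9 different segments of each line, so that none of them repeats the value of another.

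**Figure D1:**
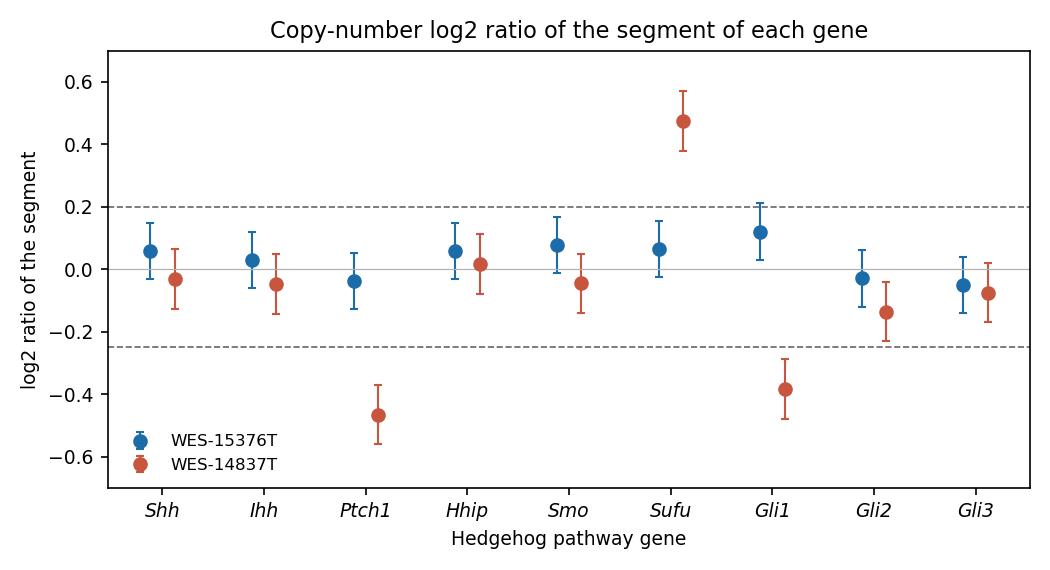
Log2 ratio of the segment of each Hedgehog gene (y axis) in 15376T (blue) and 14837T (red), with bars of 1 SD (spread of log2 over autosomal 2-copy segments) and dashed lines at the call thresholds of -0.25 and 0.2. All 9 blue points lie between the dashed lines, while red Sufu lies above them at 0.48 and red Ptch1 and Gli1 lie below them at -0.47 and -0.38.

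The levels in 15376T ran from 0.12 (Gli1) through Smo, Sufu, Hhip, Shh, Ihh, Gli2 and Ptch1 down to -0.051 (Gli3). No gene differed from the next in this order by more than 1 SD. In 14837T the order was Sufu, Hhip, Shh, Smo, Ihh, Gli3, Gli2, Gli1 and Ptch1. Only 2 steps in it were larger than 1 SD, the step of 0.46 from Sufu to Hhip and the step of 0.25 from Gli2 to Gli1. Gli1 and Ptch1 differed by 0.083 there, less than 1 SD. The log2 was lower in 14837T for 8 of the 9 genes, where it was so for 40.8% of all genes. That share includes genes lost in 15376T (30.1% of all genes), which none of the 9 was, so it is not a matched background. Among the 8 genes are the 6 with the same call, whose differences of -0.12 to -0.024 all lay within their spread of 0.13.

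**Figure D2:**
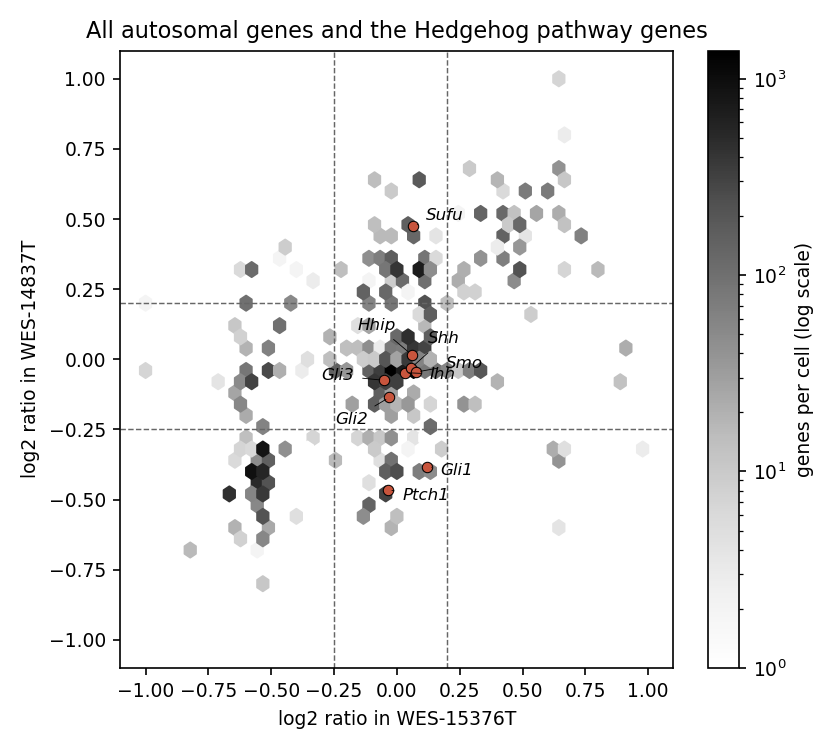
Log2 ratio in 15376T (x axis) and 14837T (y axis) of 20947 autosomal genes (gray cells, darker with more genes on a log scale, values beyond 1 or -1 drawn at the edge) and of the 9 Hedgehog genes (red points), with the call thresholds as dashed lines. No Hedgehog gene lies in the dark group at the lower left, and Sufu, Gli1 and Ptch1 lie outside the central box.

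The ligand genes were at 2 copies in both lines. Shh (Sonic hedgehog, chr5:28456840-28467101 of GRCm38) had a log2 of 0.058 in 15376T and -0.030 in 14837T. Its segments were nearly the same in both lines, 31.5 Mb long with 236 genes in each, and held 2954 and 2949 bins. Ihh (Indian hedgehog, chr1:74945315-74951672) had a log2 of 0.031 in 15376T and -0.048 in 14837T. It lies 0.598 Mb inside the lower border of its segment in 15376T, and the segment beyond was at -0.089, also 2 copies. In 14837T that border lies 5.02 Mb away, and the segment beyond it, with 258 bins, was called at 1 copy (-0.32). The genes listed next to Shh were Rbm33 and 9530036O11Rik, and those next to Ihh were Cfap65 and Nhej1.

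Ptch1 is the receptor that holds Smo in check, and an inherited loss is known to predispose to tumors of the cerebellum and skin. It lies on chr13:63508328-63573460. Its log2 was -0.036 in 15376T (3111 bins, 2 copies) and -0.47 in 14837T (2663 bins, 1 copy). The difference of -0.43 was -3.28 in units of its spread, and 88.1% of all genes differed by less. The loss was part of a long stretch. In 14837T 4 neighboring segments, from 28952065 to the last at 119886058, were all called at 1 copy with a log2 between -0.62 and -0.38, over 90.9 Mb. The same stretch in 15376T held 4 segments, all at 2 copies, with a log2 between -0.091 and 0.081. The segments of Ptch1 also hold 302 other genes in both lines, which carry the same pair of values, among them Fancc and Ercc6l2 on either side of Ptch1, and Gas1, a co-receptor of Hedgehog ligands.

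Hhip (Hedgehog-interacting protein), the other antagonist at the membrane, binds the ligands and is itself induced by the pathway. It lies on chr8:79965850-80058060 and was at 2 copies in both lines, with a log2 of 0.058 in 15376T and 0.017 in 14837T. Its segments start 10.4 Mb below it in each line. Anapc10 is listed next to it.

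Smo, which carries the signal across the membrane, lies on chr6:29735497-29761366. Its log2 was 0.078 in 15376T and -0.045 in 14837T, 2 copies in each. The segment around it measured 11.1 Mb with 1237 bins in 15376T and 127.0 Mb with 9981 bins in 14837T, the longest of any of these genes. The value of Smo in 14837T is therefore a mean over most of chromosome 6, whereas in 15376T stretches of that chromosome from 65074836 to 76274717 and from 120208852 to 130380665 had gains of their own (log2 0.30 and 0.33). Tspan33 and Ahcyl2 flank Smo in the tables.

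Sufu, which holds Gli proteins in the cytoplasm and favors their repressor forms, lies on chr19:46396896-46488804. Its log2 was 0.065 in 15376T (1841 bins, 2 copies) and 0.48 in 14837T (2022 bins, 3 copies). The difference of 0.41 was 3.13 in units of its spread, and 87.1% of all genes differed by less. The read depth of the segment itself was 51.3 in 15376T and 71.1 in 14837T. In 14837T the gain ran over 4 segments from 3000501 to 48205627 (45.2 Mb) with a log2 between 0.36 and 0.52. In 15376T 3 of the 6 segments over this stretch were gained, but they lie at the start of the chromosome, and the 3 others, that of Sufu included, were at 2 copies. Sufu lies 1.72 Mb from the end of its gained segment in 14837T, and the next segment (88 bins) had a log2 of 0.058, at 2 copies, which would be the call of Sufu if the border lay below it. The last segment of the chromosome, from 51543580, was gained again (0.37). Of all genes, 13.4% were at 2 copies in 15376T and gained in 14837T, which is 2803 of the 12747 at 2 copies in 15376T. The 162 other genes that share both segments with Sufu include its neighbors Actr1a and Trim8 and also Btrc, a subunit of the ubiquitin ligase that targets Gli proteins.

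The Gli genes took different calls in 14837T. Gli1 (chr10:127329882-127341579), which acts only as an activator, had a log2 of 0.12 in 15376T (1114 bins) and -0.38 in 14837T (1509 bins, 1 copy). The difference of -0.50 was the largest of the 9 genes, -3.84 in units of its spread, and 93.7% of all genes differed by less. Gli1 lies close to a segment border in both lines. In 15376T it is 0.604 Mb above the lower border of a segment of 3.77 Mb at the chromosome's end, and the segment below that border was at -0.035. In 14837T it lies 0.688 Mb below the upper border of its segment, and the segment beyond, which runs to the chromosome's end, was at -0.23, just short of the threshold for a loss. Taken from these neighboring segments instead, the difference was -0.20 and Gli1 was called at 2 copies in both lines. The 2 segments of Gli1 overlap over only 1.30 Mb with 48 other genes, Arhgap9 and Inhbe nearest to it. The loss around Gli1 in 14837T spanned 5 segments from 75639546 to 128029864 (52.4 Mb), with a log2 between -0.58 and -0.37. In 15376T 1 of the 6 segments over this stretch was lost (log2 -0.40), and it did not hold Gli1.

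**Figure D3:**
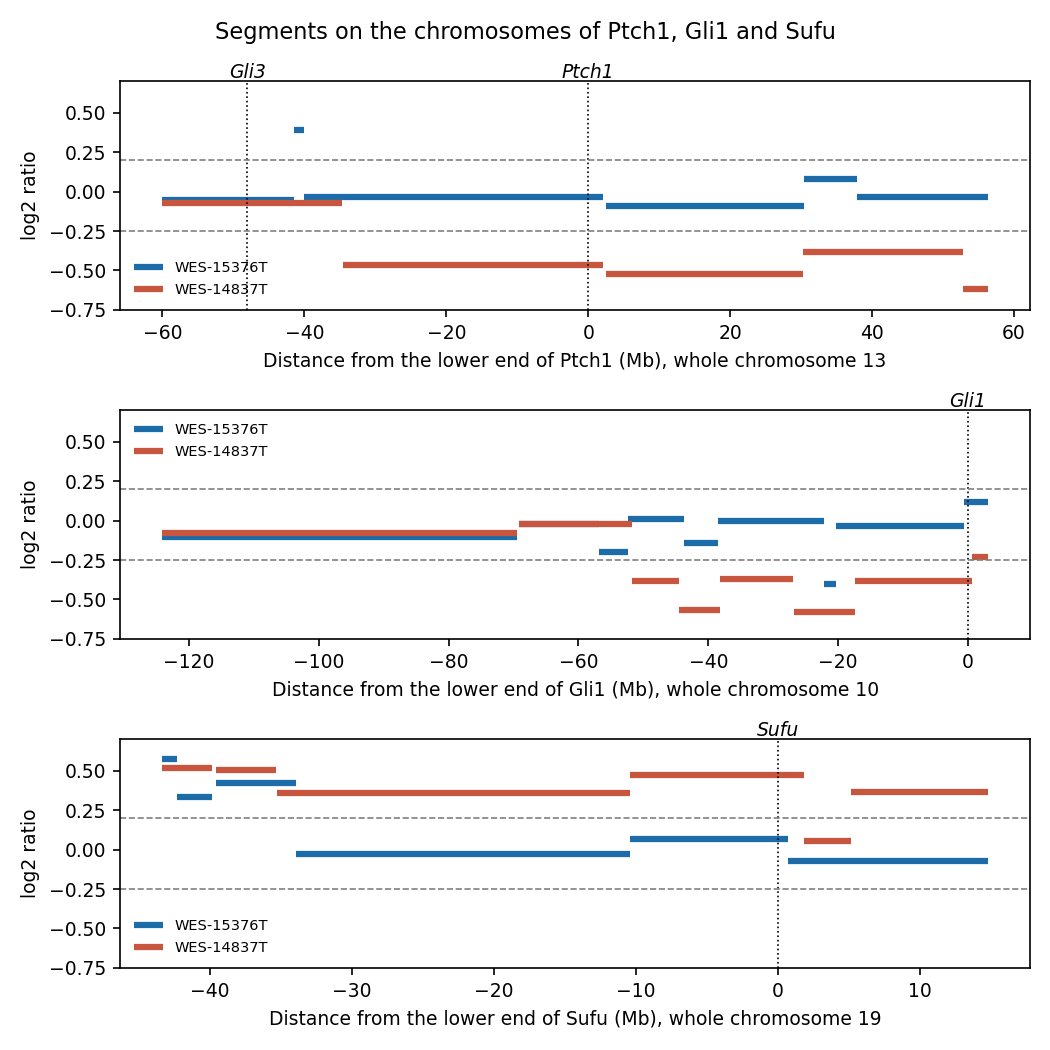
Log2 ratio (y axis) of every segment on chromosomes 13, 10 and 19 in 15376T (blue) and 14837T (red) against the distance in Mb from the lower end of Ptch1, Gli1 and Sufu (x axis), with dotted lines at the genes, Gli3 included, and dashed lines at the thresholds. In 14837T the loss on chromosome 13 starts between Gli3 and Ptch1, Gli1 lies close to the end of the lost stretch, and Sufu lies in the gained part of chromosome 19.

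Gli2 (chr1:118834061-119054405), the main activator on first contact with the signal, was at 2 copies in both lines, with a log2 of -0.029 in 15376T and -0.14 in 14837T. In both lines its segment starts at 117987735, 0.846 Mb below the gene. It then runs 77.2 Mb with 6753 bins in 15376T but 9.47 Mb with 438 bins in 14837T, the smallest number of bins among these values. By the read depth of the segment over that of 2-copy segments Gli2 was at -0.25 in 14837T, and the difference between the lines was -0.24. This depth is without normalization and the segments differ in length, so the threshold of a loss does not apply to it. Gli3 (chr13:15463723-15730026), which works mainly as a repressor without the signal, was at 2 copies in both lines as well, with a log2 of -0.051 in 15376T and -0.075 in 14837T. This difference of -0.024 was the smallest of the 9. Tfcp2l1 and Inhbb are listed next to Gli2, and AW209491 and B230303A05Rik next to Gli3.

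Gli3 and Ptch1 lie on the same chromosome, 47.8 Mb apart, and only the lower part with Gli3 kept 2 copies in 14837T. The difference, Ptch1 minus Gli3, was -0.39 there, or -4.10 in units of the SD of one value. That SD is smaller than the spread of a difference, so -4.10 does not compare with the values given between the lines. The border lay between 28812720 and 28952065, 13.1 Mb above Gli3 and 34.6 Mb below Ptch1. In 15376T Ptch1 minus Gli3 was 0.015, within the SD. A short segment of 56 bins between the genes in 15376T, from 22005041 to 23460658, was gained (log2 0.39) and holds neither. Ihh and Gli2 share chromosome 1 at a distance of 43.9 Mb. Gli2 minus Ihh was -0.060 and -0.088 in the 2 lines, both within the SD.

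The B-allele fraction (BAF), in general the share of reads that carry the second allele at variant sites, set the chromosome 13 genes and Smo apart from the others. Its median over the autosomes was 0.077 in 15376T and 0.061 in 14837T, and the number of sites behind each value is unknown. The BAF of Gli3 was 0.30 in 15376T and 0.41 in 14837T. That of Ptch1 was 0.29 in 15376T and 0.68 in 14837T, where only 0.780% of the autosomal length had a higher one. That of Smo was 0.042 in 15376T and 0.40 in 14837T, the latter exceeded over 3.47% of the length. The segment of that last value spans most of chromosome 6, where the BAF of 15376T ranged from 0.042 at Smo to 0.74 and more in the 4 segments between 87158067 and 130380665. In the other 6 genes it ranged from 0.039 (Shh in 15376T) to 0.097 (Gli1 in 14837T). The segment of Ptch1 thus combined a lower log2 with a higher BAF in 14837T, but the rest of the lost stretch did not. Above Ptch1 the BAF was 0.1 in the segment from 66007704 and 0.034 in that from 93808219, and the last segment had none. The BAF of Gli1 (0.083 and 0.097) and Sufu (0.079 and 0.067) stayed near the medians in both lines.

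**Figure D4:**
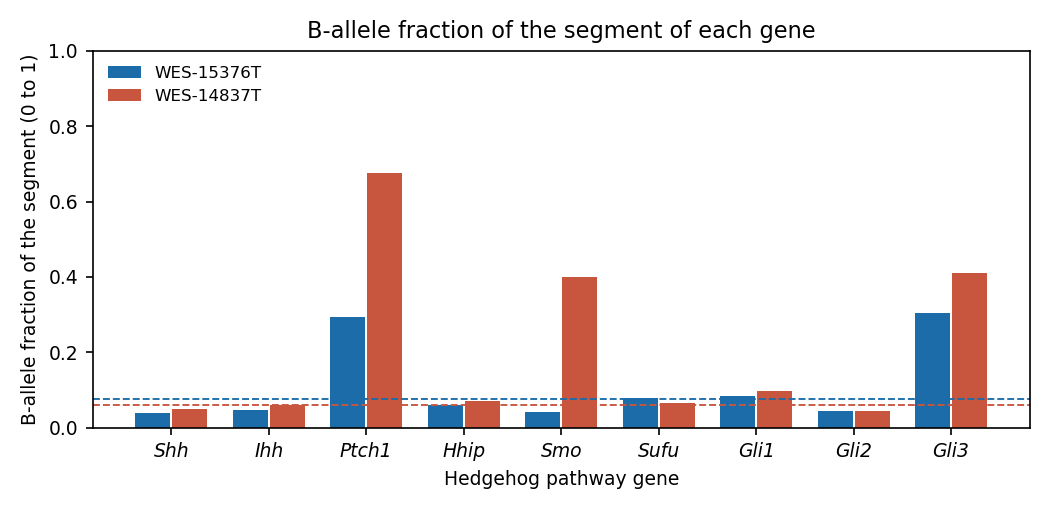
BAF (y axis, from 0 to 1) of the segment of each Hedgehog gene in 15376T (blue) and 14837T (red), with dashed lines at the autosomal median of each line. The bars of Ptch1 and Gli3 are at 0.29 or more in both lines, that of Smo is at 0.40 in 14837T only, and the other bars are at 0.097 or less.

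The gene tables add a read depth of the gene's own bins, but list only genes from an absolute log2 of 0.40. They held Ptch1 and Sufu in 14837T and none of the 9 in 15376T, so the own depths of the lines could not be compared. Ptch1 had a mean depth of 32.4 over 24 bins, close to the 34.3 of its segment, and Fancc and Ercc6l2 beside it had 37.0 and 39.7. Sufu had a mean depth of 53.3 over 15 bins, below the 71.1 of its segment, with 95.8 in Actr1a and 50.7 in Trim8. Relative to segments at 2 copies the own depth was -0.55 for Ptch1 and 0.17 for Sufu on the log2 scale. Capture differs widely between genes: relative to the segment, the SD of own depth over 2770 genes with at least 5 bins was 0.42 on the log2 scale. Within their segments, 25.3% of 186 other genes had a lower relative depth than Ptch1 and 11.3% of 133 a lower one than Sufu. The bins listed for Ptch1 run from 63511504 to 63565470 and those for Sufu from 46397190 to 46485958.

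These bins stop short of the start site in either gene, so the depths describe the transcribed part and not the promoter. The 250 bases before the start site of these members, the only ones with a depth of their own, are shown from RefSeq on GRCm38.p6, with CG dinucleotides in capitals. Ptch1 is on the minus strand (chr13:63565736-63565985, which lies inside the annotated gene because it extends further to another start) and Sufu on the plus strand (chr19:46396646-46396895).
Ptch1: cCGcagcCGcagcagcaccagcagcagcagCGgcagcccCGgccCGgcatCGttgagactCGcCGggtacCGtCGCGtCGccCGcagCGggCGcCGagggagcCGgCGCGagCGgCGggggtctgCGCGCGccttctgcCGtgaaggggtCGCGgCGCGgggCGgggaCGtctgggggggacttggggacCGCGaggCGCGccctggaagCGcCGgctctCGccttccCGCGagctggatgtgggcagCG
Sufu: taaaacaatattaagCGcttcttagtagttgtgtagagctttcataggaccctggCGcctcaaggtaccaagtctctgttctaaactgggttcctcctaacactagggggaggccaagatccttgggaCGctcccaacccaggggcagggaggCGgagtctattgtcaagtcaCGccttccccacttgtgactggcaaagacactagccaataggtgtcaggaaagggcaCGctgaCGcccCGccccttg

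The stretch before Ptch1 holds 41 CG dinucleotides and 78.4% G and C, and that before Sufu 8 and 54.0%, where the medians over 32851 promoters were 6 and 52.4%. RefSeq promoters were at hand for 7 of the 9 genes, without Shh and Gli1. The Gli binding motif GACCACCCA, searched on both strands in 300 bases around each start site, was in none of the 7 and in 0.253% of all promoters. A motif this rare would seldom occur in any 7 promoters, so its absence says nothing particular about these genes. Sites further away were not searched.

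Of 40 other genes of the pathway, 39 were found in the tables, all but Disp1. Among the 38 on autosomes, 5 were gained and 12 lost in 15376T (9.09% and 30.1% of all genes), and 8 were gained and 11 lost in 14837T (21.4% and 28.8% of all genes). Their call differed between the lines for 13 of 38, or 34.2%, beside 29.3% of all genes. Lost in both lines were 9 of them and gained in both 2, and 14 had 2 copies in both, beside 22.4%, 6.87% and 41.4% of all genes. These counts lie near the shares of all genes and show nothing particular to the pathway. On chromosome X, Gpc3, a glypican that binds the ligand, was called at 1 copy in 15376T (log2 -0.253) and 2 in 14837T (-0.16). The first value was barely past the threshold, and the difference of 0.092 was smaller than the autosomal spread of 0.13.

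Ligand production and reception were covered by 3 and 6 of these genes. Dhh (Desert hedgehog), the ligand missing from the 9, was at 2 copies in 15376T (log2 0.0086) and 3 in 14837T (0.33). Hhat, which adds the palmitate to the ligands, was at 2 copies in both, and Scube2, which helps their release, at 1 in both. Of the co-receptors, Boc was lost in both lines (-0.65 in 15376T and -0.49 in 14837T). Cdon went from 2 copies in 15376T (-0.046) to 3 in 14837T (0.26). Gas1 shared the values of Ptch1. Lrp2 was at 2 copies in both.

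The 11 genes of signal transduction at the cilium had 5 members at 2 copies in both lines, 3 with a different call, 2 lost in both and 1 gained in both. Of all genes 41.4%, 29.3%, 22.4% and 6.87% had these calls, so the counts lie near those shares. Arl13b and Ift88, needed for the structure of the cilium and transport in it, were lost in both, Ift88 with -0.55 in 15376T and -0.31 in 14837T. Grk2, the kinase that phosphorylates active Smo, was gained in both (0.33 and 0.52). Iqce, which helps hold the Evc proteins in the cilium, was at 2 copies in 15376T (0.094) and 3 in 14837T (0.34). Dync2h1, the motor of return transport, was at 2 (-0.10) and 3 (0.203), the latter barely past the threshold. Tulp3, which brings receptors into the cilium, was at 3 in 15376T (0.33) and 2 in 14837T (-0.045), where it shares the segment of Smo.

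Among 11 regulators of Gli proteins, Kif7, Gsk3b and Csnk1a1 were lost in both lines and Prkacb was gained in both (0.65 and 0.69), while its paralog Prkaca, another catalytic subunit of protein kinase A, shared the 2 copies and the segments of Hhip. Gsk3b and Csnk1a1 are kinases that mark Gli proteins for processing, with a log2 of -0.65 and -0.56 in 15376T and -0.49 and -0.44 in 14837T. Btrc shared the values of Sufu. Dyrk2, a kinase of Gli proteins, was at 2 copies in 15376T (-0.035) and 1 in 14837T, where it lies in the segment of Gli1 (-0.38). Ulk3, another such kinase, was at 1 copy in 15376T (-0.53) and 2 in 14837T (-0.029).

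Of 8 target genes, 4 had a different call, Mycn, Ccnd2, Foxm1 and Sfrp1, beside 29.3% of all genes, and Ccnd2 and Foxm1 share 1 value in each line. Mycn, which drives proliferation downstream of the ligands in the cerebellum, was the only gene of the list lost in 15376T (-0.42) and gained in 14837T (0.203), the latter barely past the threshold. Ccnd2 and Foxm1 were at 3 copies in 15376T (0.33) and 2 in 14837T (-0.045). Sfrp1, an inhibitor of Wnt signaling, was at 1 copy in 15376T (-0.52) and 2 in 14837T (0.022). Ccnd1 (cyclin D1) was lost in both (-0.53 and -0.44). Bcl2, Foxf1 and Foxl1 were at 2 copies in both.

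**Figure D5:**
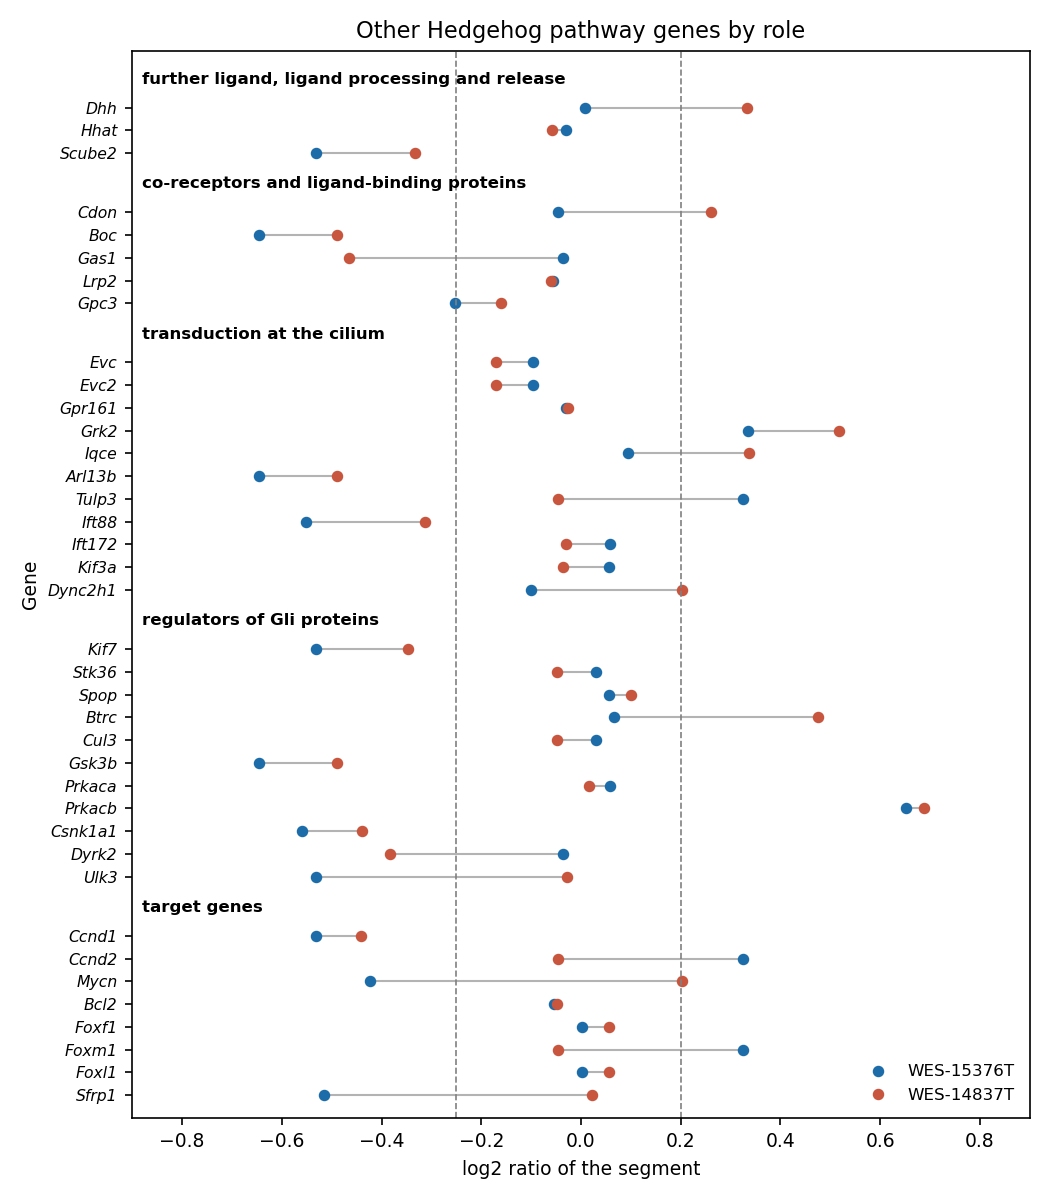
Log2 ratio of the segment (x axis) of 38 of the 39 other Hedgehog pathway genes (rows, grouped by role) in 15376T (blue) and 14837T (red), joined by gray lines, with dashed lines at the thresholds of -0.25 and 0.2. Boc, Kif7 and Gsk3b lie left of both thresholds in both lines, and Mycn crosses from left to right.

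For genes listed in the gene tables of both lines, the own depth gave a second view of the difference, from the same libraries. It is not scaled for the depth of the library (autosomal mean 43.4 in 15376T and 47.5 in 14837T). Boc, the co-receptor, had a depth of 23.5 in 15376T and 25.0 in 14837T over 19 bins, a log2 ratio of 0.089 where its segments differed by 0.16. Gsk3b had 33.0 and 41.8 over 22 bins, a log2 ratio of 0.34 where its segments also differed by 0.16. Over 1983 genes listed in both with the same bins, at least 5, the own ratio exceeded the segments' difference by a median of 0.085 with an SD of 0.15. This deviation ran from -0.068 in Boc to 0.24 in Csnk1a1 over the 6 pathway genes listed in both, which also include Arl13b, Prkacb and Ccnd1, and these ends lay slightly more than 1 SD from the median.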

How the data were processed

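WES was done on genomic DNA of each line, 1 library per line. For the capture, NimbleGen probes are named in the methods and an Agilent kit in the labels, each designed on human exons. Per the labels the build is mm10. The copy-number program is not given in the sources used here, and the columns are those of CNVkit. The log2 ratio deposited by the authors compares coverage with a reference that is not given in the sources used here. The BAF deposited is a fraction from 0 to 1, the depth deposited is a mean coverage signal without normalization, and the weight deposited is a score that was not used. Copy numbers were called by the authors. Read counts are not part of these tables, so no interval could be set.

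Members were looked up by name in the segment tables, and RefSeq (GRCm38.p6) gave the positions of genes. Starts were converted to count from 1. All genes means the 20947 autosomal names found in exactly 1 segment of each line. Named were the 9 members, the next gene on either side in the segment's list, and the other pathway genes as counts, with those called differently. Members, lists and this rule were chosen with earlier results of these data known. Further genes of the list are named with their values where the text describes their role. Alternatives were an absolute log2 of 0.3 or 0.5 as the threshold, recentred log2, segment depth, the chromosome's mean and the log2 of the gene table. The segment beyond the nearer border was added after the values were seen. Python 3.11.15, numpy 2.4.6, pandas 2.3.3 and matplotlib 3.10.9 were used, and the lookup and the counts were tested on simulated data. 1 allele of the mice and values of some genes are not reported here.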

Additional observations from a re-analysis of the deposited data

How the results depend on the processing

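With calls only from an absolute log2 of 0.5, 0 of the 9 genes were gained and 0 lost in 14837T and 0 were called differently between the lines, since Ptch1 (-0.47), Gli1 (-0.38) and Sufu (0.48) are all smaller in size. Of the other pathway genes, 1 was then gained and 11 were lost in 15376T, and in 14837T 2 were gained and none (0) lost. This threshold thus removed the losses of 14837T but kept most of those of 15376T. Shares of all genes at the alternative settings are not given here, so these counts have no background. With a log2 of 0.3, 5 of the other genes were gained in 14837T in place of 8, and recentring kept every count within 1.5 times its value. By the segment beyond the nearer border, an alternative chosen after seeing the data, 1 gene was gained in 15376T (Gli3) and 0 in 14837T, while 3 were lost in 14837T, Ptch1 together with Ihh (-0.32) and Gli3 (-0.47), and Gli1 no longer. No paired analysis was possible because no test was made on 1 library per line. Of 27 log2 values and differences of single genes, 17 moved by more than their spread by that segment, 8 by segment depth, 6 by the mean of the chromosome and 0 by recentring. No value called as gained or lost changed sign, but several values at 2 copies did. By the segment beyond the nearer border, Shh in 15376T moved from 0.058 to -0.097 and Gli3 in 15376T from -0.051 to 0.39. The cause was not tested. The depth of single bins is not part of these tables, which limits what can be said of any gene alone.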

Other observations

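Of the 18 borders of the members' segments, 4 had the same position in both lines. These were the lower borders of the segments of Shh, Gli2 and Gli3 and the upper border of that of Ptch1 at 65559739 on chromosome 13. The lower borders of the segments of Hhip and Sufu lay 2.36 kb and 4.05 kb apart between the lines, and the upper borders of the segment of Shh 14.5 kb apart. The lower borders for Shh and Gli3 are the first positions covered on their chromosomes. The border for Gli2 adjoins a stretch that no segment covers in either line, from 117675170 to 117987735 on chromosome 1. So does that for Ptch1, with 65559739 to 66007704 on chromosome 13. These 4 positions thus do not show breakpoints shared by the lines.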
